A study of Botryllus schlosseri with 27 samples.

Results

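The contigs described here are 76 of the 50106 contigs in a Botryllus schlosseri EST assembly, each with a human homolog named as a digestive enzyme of pancreatic type or as its inhibitor. They were chosen by the start of the homolog's name (Trypsin, Chymotrypsin, Chymotrypsin-like elastase, Carboxypeptidase A, Carboxypeptidase B, Pancreatic or Alpha-amylase) among 1998 rows, 879 of them with a named homolog, of the study's list of contigs that differed between old and young colonies. These rows are only a part of that list, and names were not at hand for the other contigs, so the set is incomplete, and the class sizes and summed class levels below cover these members alone. The 9 old and 9 young libraries therefore chose the members, and differences between these ages are given below as a description, without a test. The set held 28 trypsins (27 with the name Trypsin-2 and 1 with the name Trypsin-3), 24 chymotrypsins (15 Chymotrypsinogen B2, 4 Chymotrypsinogen B and 5 chymotrypsin-like protease CTRL-1), 1 elastase, 10 carboxypeptidases A (7 A2 and 3 A4), 5 carboxypeptidases B, 2 pancreatic lipases, 4 alpha-amylases and 2 pancreatic secretory trypsin inhibitors. The inhibitors are not enzymes but are made together with them in vertebrates. Contig sequences and lengths were not used here, so the names could not be checked further, and near-identical contigs such as the trypsins may have shared or split reads in mapping, which makes the level of each of them uncertain. All 76 passed the filter on low counts.

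Colonies of Botryllus, a colonial ascidian, consist of many genetically identical zooids joined by a common blood vessel system, and each zooid has its own pharynx and gut. Lab-reared wild-type colonies of 3 lines (SMH, SMG and SB825) were sampled at 3 years (old), at 2 years and at 4 months (young), all at stage B2 of the blastogenic cycle, the recurring cycle in which new buds replace the adult zooids. The 2-year-old colonies were offspring of the 3-year-old ones and the 4-month-old colonies offspring of the 2-year-old ones, so age and generation changed together and cannot be told apart. RNA came from whole colonies, and every line had 3 libraries per age under 1 genotype name. A line at 1 age is called a colony here. The study describes the 3 libraries as biological replicates of a genotype and speaks of 3 systems (groups of zooids) per sample for the young and old ages. Each colony is 1 genotype, so p-values below measure the spread between libraries of that genotype and not between genotypes. The count table spells the young SMG libraries SMGO and the sample labels spell them SMG, and they are treated as SMG. Because whole colonies were sequenced, fewer enzyme-producing cells and less RNA per cell cannot be told apart.

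In vertebrates most proteins of these classes are made by the acinar cells of the pancreas and released into the intestine. The digestive proteases and carboxypeptidases among them are stored as inactive zymogens, and trypsin activates the other zymogens in the intestine. Ascidians have no separate pancreas, and enzymes of this kind are made in the epithelium of the stomach and gut. Trypsin, chymotrypsin and elastase are serine proteases that cut within proteins after basic, large aromatic and small residues. Carboxypeptidases A and B remove single residues from the free carboxyl end, amylase cuts starch and pancreatic lipase cuts triglycerides.

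The libraries held 31013902 to 48426188 counted reads, and all counts were even numbers, so the reads of a pair were counted together. Levels of single contigs are given as CPM, the read count scaled to library size with TMM factors of 0.632 to 1.43, and summed classes as the share of all counted reads. The 3 libraries of a colony differed by more than sampling noise in every colony (chi-square per degree of freedom of 4.43 to 121), so none was counted as a duplicate. In the young SMG colony 13.2% of 43180 contigs had no read in any library, against 1.59% to 3.31% in the other 8 colonies. Sperm and axoneme names were followed as a list of 32 contigs beside the digestive ones. They come from the same rows of contigs that differed between old and young colonies, so their age differences are also a description. Most of the 32 are named as axonemal dynein heavy chains and the rest as testis-specific kinases, so the list need not mark 1 cell type. This list took 0.000199% to 0.00868% of reads in young libraries, 0.00842% to 0.0368% at 2 years and 0.00339% to 0.0229% in old libraries.

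The digestive contigs took up a larger part of the transcriptome in 2-year-old and old colonies than in young ones. Together they made up 0.107% of reads at 4 months, 0.708% at 2 years and 0.555% at 3 years, each the mean of 3 colonies. Trypsins took 0.0264% at 4 months, 0.384% at 2 years and 0.299% at 3 years, and chymotrypsins 0.0390% at 4 months, 0.268% at 2 years and 0.214% at 3 years. Between old and young colonies the ratio of these means was 11.3 for trypsins, 6.84 for carboxypeptidases B, 5.69 for the elastase, 5.49 for chymotrypsins, 4.51 for amylases, 3.72 for trypsin inhibitors and 3.71 for lipases. Several of these ratios, and their order, depended on young SMG library 1. Without it, a setting added with the values known, the ratio was 21.0 for trypsins, 18.4 for chymotrypsins, 14.8 for amylases and 10.9 for carboxypeptidases B, and the elastase (6.04), the trypsin inhibitors (4.23) and the lipases (3.80) moved less. By line and with all libraries, the trypsin ratio was 24.9 in SMH, 7.60 in SMG and 11.1 in SB825, the chymotrypsin ratio 25.7 in SMH, 2.21 in SMG and 11.6 in SB825, and the amylase ratio 24.4 in SMH, 2.07 in SMG and 8.18 in SB825. The carboxypeptidases A stood apart with a ratio of 0.648, and without 1 contig, CAP3_round1_contig_6849, their ratio was 7.90 (16.1 also without young SMG library 1). The sperm and axoneme list had a ratio of 5.09 over the 3 lines, with 14.7 in SMH, 70.4 in SMG and 0.921 in SB825, and its part in these differences was not tested.

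The size of the enzyme pool varied widely between libraries of the same colony. All members together took 0.634%, 0.609% and 0.303% of reads in the 3 old SMH libraries, against 0.0257%, 0.0596% and 0.0627% in the young ones. In SMG they took 0.794%, 0.542% and 0.278% of reads in old libraries, against 0.490%, 0.0737% and 0.0260% in young libraries. In SB825 the old libraries held 0.625%, 0.0742% and 1.14%, and the young libraries 0.0521%, 0.0448% and 0.124%. Old and young libraries therefore separated in SMH, while young SMG library 1 lay within the old SMG range and old SB825 library 2 lay within the young SB825 range.

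**Figure D1:**
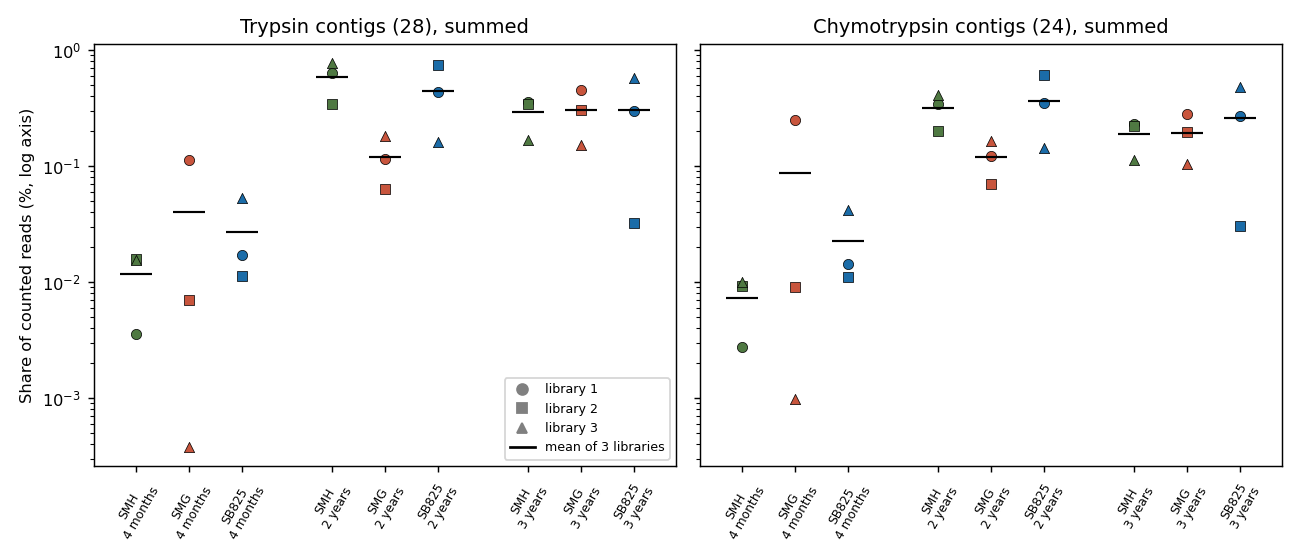
Share of all counted reads (percent, log axis) taken by the 28 trypsin contigs (left) and the 24 chymotrypsin contigs (right) in each of 27 libraries, by age from 4 months to 3 years and by line within each age. Symbols mark libraries 1, 2 and 3 and bars the mean of a colony. Young SMG library 1 stands far above the other young SMG libraries and old SB825 library 2 far below the other old SB825 libraries.

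The trypsins ranged widely between libraries. In the young SMG colony they took 0.113% of reads in library 1 (19426 read pairs, 95% Wilson interval 0.112% to 0.115%), 0.00707% in library 2 and 0.000382% in library 3 (73 read pairs, interval 0.000304% to 0.000480%), a 297-fold range. The old SB825 libraries spanned 17.9-fold, with 0.299%, 0.0322% and 0.575%. Chymotrypsins followed the same libraries, with a 256-fold range in young SMG and a 15.8-fold range in old SB825. These intervals cover counting error only, and the gaps between libraries of 1 colony were far wider than the intervals.

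For each contig the standard deviation of the log2 level between libraries of a colony was pooled over all colonies. Its median was 1.48 for the 57 members with a mean of at least 10 CPM, against 0.146 for all 10344 contigs at that level. Between colonies the medians were 2.47 for these members and 0.552 for all such contigs. Colonies with a wide spread weigh most in the pooled value. The summed trypsin share spanned 297-fold in young SMG and 17.9-fold in old SB825, against 2.14-fold to 4.68-fold in the other colonies. The members were chosen for a difference between old and young colonies, so the spread between colonies follows in part from that choice, and both spreads are given as a description.

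Most members went up and down together from library to library. Within colonies, the log2 level of 46 of the 76 members (60.5%) had a Pearson r of at least 0.9 with the summed trypsin and chymotrypsin level over the 27 libraries, against 0.375% of all 43180 contigs. This is a description, because the sum includes 52 of the members and libraries share depth and scaling. The 4 amylases, which are not part of the sum, had r of 0.98 to 0.99, and also 0.97 to 0.99 when young SMG was left out. Among the carboxypeptidases A, CAP3_round1_contig_8226 had r of 0.99 and Bot_rep_c57546 r of 0.96. Of the carboxypeptidases B, CCTT6817.g1 had r of 0.95. No contig of the sperm and axoneme list reached 0.9, and their median r was -0.04.

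A few members did not follow the pool. The pancreatic triacylglycerol lipase Bot_c2742 had an r of -0.04, the CTRL-1 contig Bot_c7280 of -0.06, and the chymotrypsinogens Bot_c12296 and Bot_c16350 of -0.01 and 0.15. Bot_c2742 was even within colonies, with 3.81 to 4.61 CPM in old SMH, 11.7 to 16.4 CPM in old SMG and 5.65 to 8.64 CPM in old SB825, against 2.95 to 3.52 CPM in young SMH, 2.13 to 2.59 CPM in young SMG and 1.71 to 1.78 CPM in young SB825. Old and young libraries of this lipase, which hydrolyses dietary triglycerides, did not overlap in any line. The elastase Bot_c27199 had an intermediate r of 0.49.

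The proportion between trypsin and chymotrypsin changed less inside a colony than the pool did. In old SB825, where the trypsin share spanned 17.9-fold, the trypsin to chymotrypsin read ratio was 1.104, 1.06 and 1.198 in the 3 libraries. Across all 9 SB825 libraries it ranged between 1.03 and 1.27. In SMH the ratio was 1.30 to 1.70 at 4 months, 1.70 to 1.89 at 2 years and 1.49 to 1.55 at 3 years. In SMG it was 0.388 to 0.772 at 4 months, 0.894 to 1.095 at 2 years and 1.48 to 1.63 at 3 years, so that the 3 ages of this line did not overlap. The young SMG ratios differed 1.99-fold between libraries, and those of young SMH 1.31-fold. Amylase reads were 0.0439 to 0.0502 of chymotrypsin reads in old SB825 and 0.0525 to 0.0786 in young SB825.

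**Figure D2:**
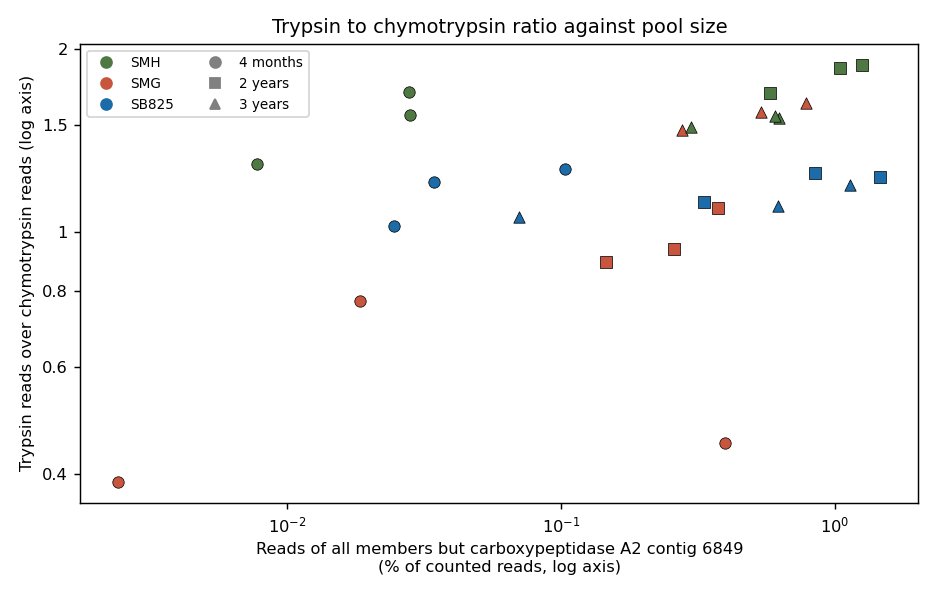
Trypsin reads over chymotrypsin reads (log axis) against the share of reads taken by all members but CAP3_round1_contig_6849 (percent, log axis), with 1 point for each of 27 libraries. Colours mark lines and symbols ages. SB825 stays between 1.03 and 1.27 at every pool size, while the SMG ratios are 0.388 to 0.772 at 4 months and 1.48 to 1.63 at 3 years. Some trypsins had no read in young SMG and enter the SMG ratio at the other ages only.

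Members were next compared between old and young colonies 1 contig at a time. The mean level was higher at the old age in all 3 lines for 74 of 76 members, and in 74 every old colony lay above every young colony. Over all 43180 contigs these shares were 23.3% and 11.3%. In 1 member the order was the opposite by both measures, against 15.3% and 6.38% of all contigs. Since this contrast chose the members, nothing is read from these differences. The median log2 difference, old minus young, was 3.67 over the members and 0.25 over all contigs. By line the members' median was 4.95 in SMH, 2.78 in SMG and 3.60 in SB825. Without old SB825 library 2 and young SMG library 1, which were picked for omission with the values known, the median over the 3 lines was 5.03 and 75 members were higher in all 3 lines.

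At the level of libraries the lines differed in how far old and young separated. All 3 old libraries lay above all 3 young libraries for 75 members in SMH, 44 in SMG and 29 in SB825. The shares of all contigs with this order were 30.2% in SMH, 47.5% in SMG and 25.9% in SB825. In SB825 the carboxypeptidases B and the lipases as summed classes separated between the ages. All other classes of that line overlapped, the trypsins, chymotrypsins, amylases, trypsin inhibitors and the elastase among them. In SMG the trypsins, the elastase, the lipases and the trypsin inhibitors separated and the chymotrypsins, carboxypeptidases B and amylases did not.

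Trypsin contigs had a median old minus young log2 difference of 4.69, with a range of 2.51 to 7.08. The trypsin with the most reads, CAP3_round1_contig_6862, measured 823, 668 and 345 CPM in the old SMH libraries, against 3.80, 17.3 and 17.0 CPM in the young SMH libraries. In SB825 it measured 135, 13.7 and 205 CPM in old libraries, against 5.33, 3.05 and 17.4 CPM in young libraries. In SMG it measured 541, 427 and 178 CPM in old libraries and had no read in the young ones. The old and young libraries did not overlap in SMH and SMG, and in SB825 old library 2 lay below young library 3.

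The second trypsin, Bot_rep_c34811, averaged 343 ± 134 CPM in old SMH, 147 ± 81.5 CPM in old SMG and 216 ± 178 CPM in old SB825 (SD, n = 3 libraries each). In the young colonies the same contig averaged 3.86 ± 2.71 CPM in SMH, 0.220 ± 0.338 CPM in SMG and 9.83 ± 9.77 CPM in SB825. The third, CAP3_round1_contig_7966, averaged 60.5 ± 26.97 CPM in old SMH, 354 ± 136 CPM in old SMG and 212 ± 166 CPM in old SB825, against 16.3 ± 8.89 CPM in young SMH, 28.9 ± 40.4 CPM in young SMG and 24.6 ± 15.8 CPM in young SB825. It held first place among the trypsins of young SMH, with 14.6% of the trypsin reads there.

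Chymotrypsins had a median difference of 3.60 and a range of 2.02 to 5.25. CAP3_round1_contig_8388, a Chymotrypsinogen B2 with 19.8% of all chymotrypsin reads, measured 703, 597 and 310 CPM in old SMH libraries, against 3.38, 12.9 and 14.9 CPM in young SMH libraries. In SB825 it measured 501, 57.9 and 782 CPM in old libraries, against 17.4, 11.5 and 61.2 CPM in young libraries. In SMG the values were 479, 380 and 189 CPM in old libraries, against 357, 16.0 and 1.095 CPM in young libraries. Only the SMH libraries separated, and young SMG library 1 lay within the range of the old SMG libraries.

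The contigs next in read number were also named Chymotrypsinogen B2. Bot_rep_c53951 averaged 303 ± 122 CPM in old SMH, 362 ± 152 CPM in old SMG and 299 ± 232 CPM in old SB825, against 10.6 ± 6.06 CPM in young SMH, 147 ± 236 CPM in young SMG and 20.2 ± 18.5 CPM in young SB825 (SD, n = 3 libraries each). CAP3_round1_contig_1991 averaged 363 ± 136 CPM in old SMH, 147 ± 62.3 CPM in old SMG and 266 ± 217 CPM in old SB825, against 6.29 ± 2.80 CPM in young SMH, 44.9 ± 72.9 CPM in young SMG and 15.2 ± 12.2 CPM in young SB825. The member that was not higher in all 3 lines beside CAP3_round1_contig_6849 was Bot_c16350, a Chymotrypsinogen B, with a log2 difference of 5.01 in SMH, 6.5 in SMG and -0.18 in SB825.

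Amylases, which digest starch, had log2 differences of 2.98 to 3.29. The leading one, Bot_rep_c58397, measured 92.1, 62.6 and 29.5 CPM in old SMH libraries, against 0.493, 1.82 and 1.82 CPM in young SMH libraries. In SMG it measured 80.4, 58.3 and 24.8 CPM in old libraries, against 73.2, 2.81 and 0.864 CPM in young libraries. In SB825 the values were 55.3, 5.24 and 81.4 CPM in old libraries, against 2.93, 1.95 and 8.21 CPM in young libraries. The other 3 amylases, Bot_rep_c57861, Bot_rep_c56786 and Bot_rep_c57364, had fewer reads, and all 4 tracked the trypsin and chymotrypsin pool within colonies with r of 0.98 or more.

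Of the 5 carboxypeptidases B, which remove basic residues, CCTT6817.g1 held 50.8% of the reads and averaged 18.1 ± 6.14 CPM in old SMH, 28.9 ± 14.7 CPM in old SMG and 25.2 ± 18.5 CPM in old SB825. It averaged 0.522 ± 0.145 CPM in young SMH, 5.56 ± 9.21 CPM in young SMG and 1.12 ± 1.01 CPM in young SB825. CCTT45421.b1 measured 3.04 to 8.50 CPM in old SMH and 1.12 to 24.3 CPM in old SB825, against 0.041 to 0.148 CPM in young SMH and 0.085 to 0.637 CPM in young SB825. Bot_c4391 measured 7.95 to 10.8 CPM in old SMH libraries, against 1.69 to 4.06 CPM in young ones, and Bot_c11644 measured 1.80 to 3.27 CPM in old SMH libraries, against 0.912 to 1.13 CPM in young ones. The lowest, Bot_rep_c57862, reached at most 1.49 CPM in any old library and 0.041 CPM in any young library.

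The remaining small classes were low in level. The elastase Bot_c27199 measured 0.971, 1.40 and 1.16 CPM in old SMH libraries, against 0.211, 0.207 and 0.443 CPM in young SMH libraries. In SMG it measured 2.50, 1.62 and 2.65 CPM in old libraries, against 0.102 CPM in 1 young library and no read in the other 2. In SB825 the ranges were 0.424 to 1.22 CPM in old and 0.085 to 0.432 CPM in young libraries, and they overlapped. Pancreatic lipase-related protein 1, Bot_rep_c42352, measured 0.047 to 4.83 CPM in the 9 old libraries and at most 0.203 CPM in the young ones.

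The pancreatic secretory trypsin inhibitors bind trypsin that becomes active too early. Bot_rep_c46417 measured 8.46, 8.14 and 5.56 CPM in old SMH libraries, against 0.774, 1.202 and 1.72 CPM in young SMH libraries. CAP3_round1_contig_2203 measured 3.81, 3.47 and 2.59 CPM in old SMH libraries, against 0.563, 0.912 and 0.935 CPM in young ones. In SMG, Bot_rep_c46417 measured 1.68 to 2.62 CPM in old libraries, against 0.058 to 1.68 CPM in young libraries, and CAP3_round1_contig_2203 measured 1.22 to 1.86 CPM in old libraries, against 0 to 0.208 CPM in young libraries.

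A single carboxypeptidase A2 ran the other way. CAP3_round1_contig_6849 measured 119, 65.2 and 49.9 CPM in old SMH libraries, against 196, 299 and 355 CPM in young SMH libraries. In SMG it measured 80.5, 53.4 and 27.8 CPM in old libraries, against 816, 541 and 259 CPM in young libraries. In SB825 it measured 61.1, 37.7 and 39.0 CPM in old libraries, against 145, 157 and 155 CPM in young libraries. Every old library lay below every young library of its line, with log2 differences of -1.86 in SMH, -3.32 in SMG and -1.73 in SB825.

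This contig made up 16.6% to 90.7% of all member reads in the young libraries and at most 5.41% in the old ones, so the total over all members understates the age difference of the other 75. Its level was also even in young SB825, where it spanned 145 to 157 CPM while the trypsin share spanned 4.68-fold. Within colonies it had r of 0.70 with the trypsin and chymotrypsin pool, and over the 27 libraries r was -0.52. The other 9 carboxypeptidases A, among them the A2 contigs CAP3_round1_contig_8226 and Bot_rep_c57310, made up 0.0188% of reads in old colonies, against 0.00238% in young ones.

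**Figure D3:**
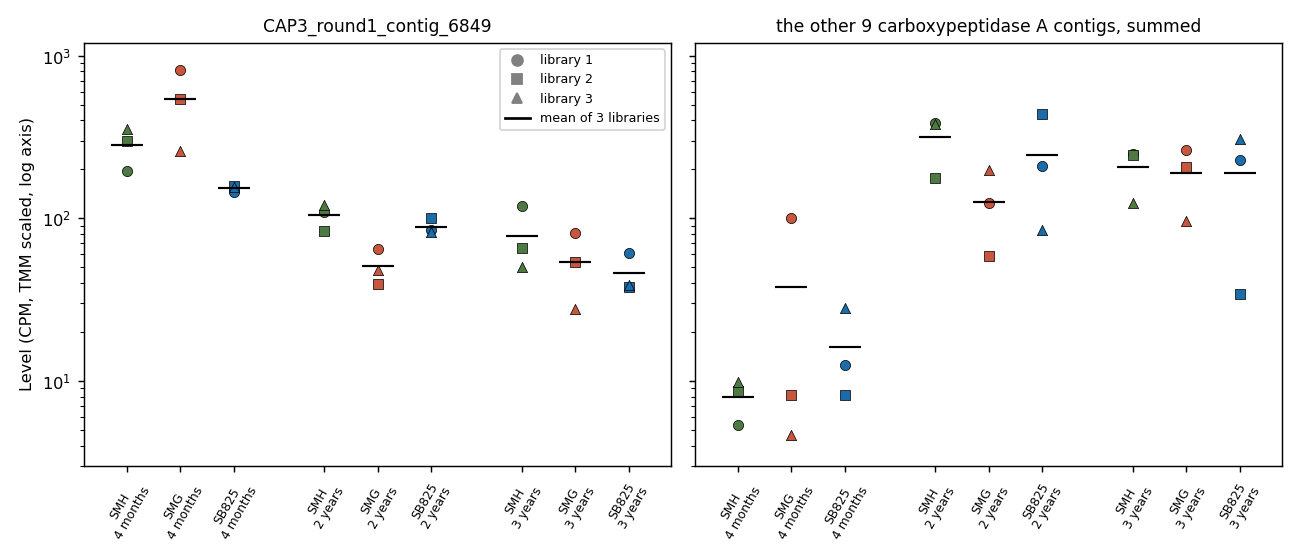
Level (CPM after TMM scaling, log axis) of CAP3_round1_contig_6849 (left) and the sum of the other 9 carboxypeptidase A contigs (right) in 27 libraries, by age from 4 months to 3 years and by line within each age. Symbols mark libraries and bars colony means. The contig on the left is highest at 4 months, with 145 to 816 CPM, while the colony means on the right are lower at 4 months than at 3 years in every line.

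Some members had no read at all in the young SMG colony. These were 12 of 76 (15.8%), close to the 13.2% of all contigs without a read there, and no member lacked reads in any of the other 8 colonies. They included 5 trypsins of high level elsewhere, namely CAP3_round1_contig_6862, Bot_rep_c48453, Bot_rep_c51149, Bot_rep_c49803 and CAP3_round1_contig_5337, together with 1 trypsin of lower level. The others were the chymotrypsins Bot_c12296, Bot_c7280 and Bot_rep_c44487, 1 more CTRL-1 contig, and the carboxypeptidases B CCTT45421.b1 and Bot_rep_c57862.

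Library 1 of that colony held 19426 trypsin read pairs, none of them on these 6 trypsins. Bot_rep_c48453 averaged 369 ± 170 CPM in old SMG and 57.3 ± 36.7 CPM in 2-year-old SMG (SD, n = 3 libraries each). Against the 0.0533 CPM that 3 read pairs over the young colony would give, it was at least 6920-fold higher in old SMG. CAP3_round1_contig_6862 was at least 7160-fold, Bot_rep_c51149 at least 5790-fold, Bot_rep_c49803 at least 2260-fold and CAP3_round1_contig_5337 at least 1310-fold higher. With the 12 contigs set at these bounds, the SMG median of the members was 2.85 in place of 2.78.

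The trypsins that did carry the young SMG pool differed from those of old SMG. CAP3_round1_contig_7852 held 26.9% and Bot_rep_c54714 12.4% of the colony's trypsin reads, as means of 3 libraries. In old SMG, CAP3_round1_contig_6862 led with 11.01% and Bot_rep_c48453 followed with 10.8%. In old SMH, CAP3_round1_contig_6862 led with 16.2% and Bot_rep_c34811 followed with 9.10%, while in old SB825 CAP3_round1_contig_7852 led with 11.4%. The chymotrypsins were more uniform, and CAP3_round1_contig_8388 or Bot_rep_c53951 held first place in all 9 colonies.

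**Figure D4:**
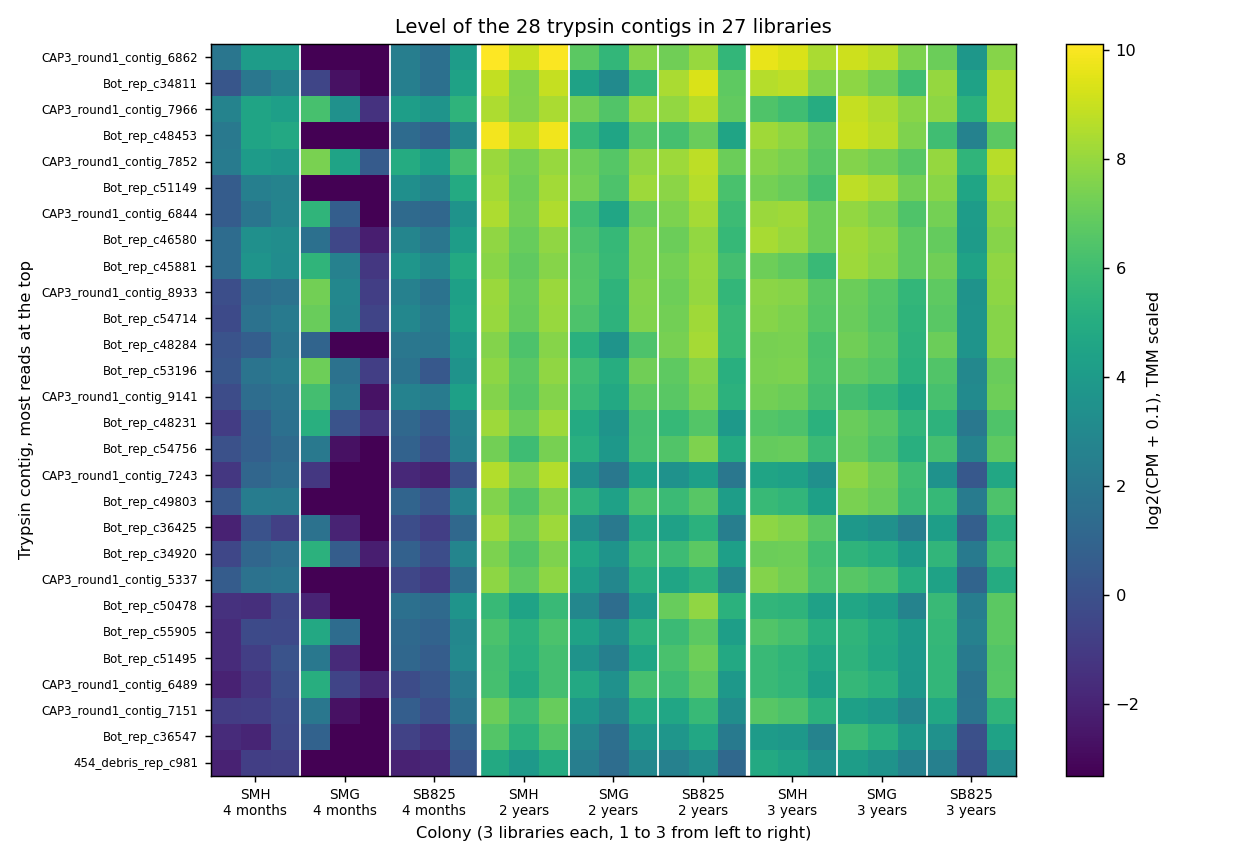
Level of the 28 trypsin contigs, as log2(CPM + 0.1), in the 3 libraries of each of 9 colonies, by age from 4 months to 3 years and by line within each age. Contigs run from the most reads at the top to the fewest at the bottom. In young SMG the rows of CAP3_round1_contig_6862, Bot_rep_c48453, Bot_rep_c51149, Bot_rep_c49803, CAP3_round1_contig_5337 and 1 further contig are dark because no read was counted.

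Members were also higher at 2 years than at 4 months. They were higher at 2 years than at 4 months in all 3 lines in 75 of 76 cases, against 23.3% of all contigs, and in 74 every 2-year-old colony lay above every 4-month-old colony, against 10.1%. In 1 member the order was the opposite by both measures, against 17.7% and 5.85% of all contigs. The median log2 difference was 3.87, against 0.22 over all contigs. The exception was again CAP3_round1_contig_6849, with 104 ± 18.8 CPM in 2-year-old SMH, 50.9 ± 12.9 CPM in SMG and 88.8 ± 9.48 CPM in SB825 (SD, n = 3 libraries each). The 4-month-old libraries are part of what chose the members, and both comparisons share them, so the 2 age differences are not independent.

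Between 3 and 2 years there was no common direction. The median log2 difference of the members, 3 years minus 2 years, was -0.13, with -0.42 in SMH, 0.41 in SMG and -0.34 in SB825. The sign of the pooled value changed, to 0.04 without SMH and to 0.03 without old SB825 library 2. Young SMG library 1 was left out in the same setting but does not enter this difference. Only Bot_c7280 was higher at 3 years in all 3 lines, and 10 members were lower in all 3, against 11.6% and 12.7% of all contigs. In 1 member every 3-year-old colony lay above every 2-year-old colony and in 0 below, against 2.56% and 2.22% of all contigs. Of the 10 lower members 7 were trypsins, among them CAP3_round1_contig_9141 with log2 differences of -0.42 in SMH, -0.40 in SMG and -0.50 in SB825.

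Bot_c7280, a chymotrypsin-like protease CTRL-1 of low level, had 1.39, 1.92 and 0.711 CPM in 3-year-old SMH libraries, against 0.071, 0 and 0.059 CPM in 2-year-old SMH libraries. In SMG it had 1.40, 2.33 and 1.93 CPM at 3 years, against 1.11, 0.634 and 0.710 CPM at 2 years. In SB825 it had 1.22, 1.22 and 1.04 CPM at 3 years, against 0.655, 0.507 and 0.788 CPM at 2 years. The 3-year-old libraries lay above the 2-year-old ones in each line.

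The 2-year-old libraries took no part in choosing the members, and differences between the lines at this age were therefore tested, with edgeR's quasi-likelihood test over 40985 contigs, Benjamini-Hochberg adjustment and a 10% false discovery rate. The members as a whole took 1.05%, 0.585% and 1.27% of reads in SMH, 0.264%, 0.150% and 0.378% in SMG, and 0.854%, 1.48% and 0.344% in SB825. The SMG libraries were low relative to all SMH libraries, and overlapped with SB825 library 3.

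In SMH over SMG, 25 of 76 members were called, 23 higher and 2 lower in SMH, against 47.9% of all contigs called (24.4% higher and 23.5% lower). The median log2 fold change of the members was 1.06, against 0 over all contigs. The called members were 13 of 28 trypsins, 5 of 10 carboxypeptidases A, both trypsin inhibitors, the elastase, 1 of 5 carboxypeptidases B and 1 of 24 chymotrypsins among the higher, and 2 chymotrypsins among the lower. None of the 4 amylases and neither lipase passed. Leaving out 1 library gave between 15 and 30 calls, with 15 without SMH library 3 or SMG library 1 and 16 without SMH library 1 or SMG library 2. With library totals the median of all contigs moved to 0.32 and that of the members to 1.47. Under that scaling 41 members were called, 39 higher and 2 lower, which is not read as a result about the members.

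Of the called increases in this pair, those of 2 trypsins were the largest. CAP3_round1_contig_7243 measured 382, 164 and 376 CPM in SMH libraries, against 10.3, 4.06 and 20.0 CPM in SMG libraries and 11.4, 19.3 and 3.91 CPM in SB825 libraries. Its log2 fold change was 4.75 ± 0.89 (SE) over SMG (edgeR adjusted p = 0.0061) and 4.74 ± 0.89 over SB825 (edgeR adjusted p = 0.0044). All 3 SMH libraries lay far above the other 6. Bot_rep_c36425 measured 281, 132 and 282 CPM in SMH, against 9.76, 4.19 and 27.1 CPM in SMG and 20.9, 38.3 and 5.30 CPM in SB825, with a log2 fold change of 4.09 ± 1.01 over SMG (edgeR adjusted p = 0.019) and 3.44 ± 0.97 over SB825 (edgeR adjusted p = 0.026).

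These contigs also differed in their share of the trypsin reads, which is taken relative to the pool. CAP3_round1_contig_7243 held 4.63% to 4.99% of trypsin reads in 2-year-old SMH, 0.543% to 0.699% in SMG and 0.342% to 0.366% in SB825. At 3 years its share was 0.468% to 0.494% in SMH and 3.69% to 4.46% in SMG, so that SMH was then the lower line. Bot_rep_c36425 held 3.67% to 3.74% in 2-year-old SMH, 0.560% to 0.942% in SMG and 0.467% to 0.680% in SB825, and at 3 years still 4.39% to 4.83% in SMH, against 0.290% to 0.307% in SMG.

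On the lower side, Bot_c7280 had 0.071, 0 and 0.059 CPM in SMH, against 1.11, 0.634 and 0.710 CPM in SMG and 0.655, 0.507 and 0.788 CPM in SB825. Its log2 fold change was -4.30 ± 0.64 over SMG (edgeR adjusted p = 0.00013) and -3.95 ± 0.63 over SB825 (edgeR adjusted p = 0.00016). The chymotrypsinogen Bot_c12296 had 0.213, 0.569 and 0.769 CPM in SMH, against 1.48, 1.78 and 1.06 CPM in SMG and 0.696, 0.507 and 0.573 CPM in SB825. It fell by 1.46 ± 0.38 on the log2 scale in SMH over SMG (edgeR adjusted p = 0.0082) and was higher in SMG over SB825 by 1.30 ± 0.36 (edgeR adjusted p = 0.0084).

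In SMH over SB825, 15 of 76 members were called, 13 higher and 2 lower, against 57.4% of all contigs called (29.7% higher and 27.7% lower). The higher members were 9 trypsins, the elastase, 1 carboxypeptidase A, 1 carboxypeptidase B and the triacylglycerol lipase Bot_c2742, and the lower ones Bot_c7280 and the carboxypeptidase B Bot_c11644. The median log2 fold change was 0.41. No amylase or trypsin inhibitor passed the test. With library totals in place of TMM, a scaling added with the values known that moved the median of all contigs to -0.53, the members' median was -0.14 and 9 members were called higher and 6 lower. Bot_c11644 measured 3.06, 2.47 and 2.49 CPM in SMH, against 4.50, 5.11 and 3.80 CPM in SB825, and fell by 0.74 ± 0.18 on the log2 scale (edgeR adjusted p = 0.0039).

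In SMG over SB825, 12 of 76 members were called, 3 higher and 9 lower, against 62.5% of all contigs called (31.6% higher and 30.9% lower). The lower members were 3 trypsins, 2 carboxypeptidases A, both trypsin inhibitors, 1 chymotrypsin and 1 carboxypeptidase B. The higher ones were the elastase, Bot_c12296 and the lipase Bot_c2742. The median log2 fold change was -0.53, against 0.01 over all contigs. With library totals alone the median of all contigs was -0.87 and that of the members -1.48, and 48 members were called, all lower in SMG. That scaling moved all contigs, so the 48 calls are not read as a result about the members. Without SB825 library 3 the count was 23, of which 20 were lower.

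Among the lower trypsins, Bot_rep_c50478 measured 7.48, 2.73 and 15.5 CPM in SMG, against 129, 234 and 38.0 CPM in SB825, with a log2 fold change of -3.97 ± 0.96 (edgeR adjusted p = 0.012). Bot_rep_c34811 measured 21.7, 8.50 and 51.1 CPM in SMG, against 338, 661 and 111 CPM in SB825, with a log2 fold change of -3.77 ± 0.97 (edgeR adjusted p = 0.016). Neither contig overlapped between the lines. As shares of trypsin reads, Bot_rep_c50478 held 0.365% to 0.538% in SMG, against 3.34% to 4.16% in SB825, and Bot_rep_c34811 held 1.14% to 1.77% in SMG, against 9.75% to 11.7% in SB825.

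**Figure D5:**
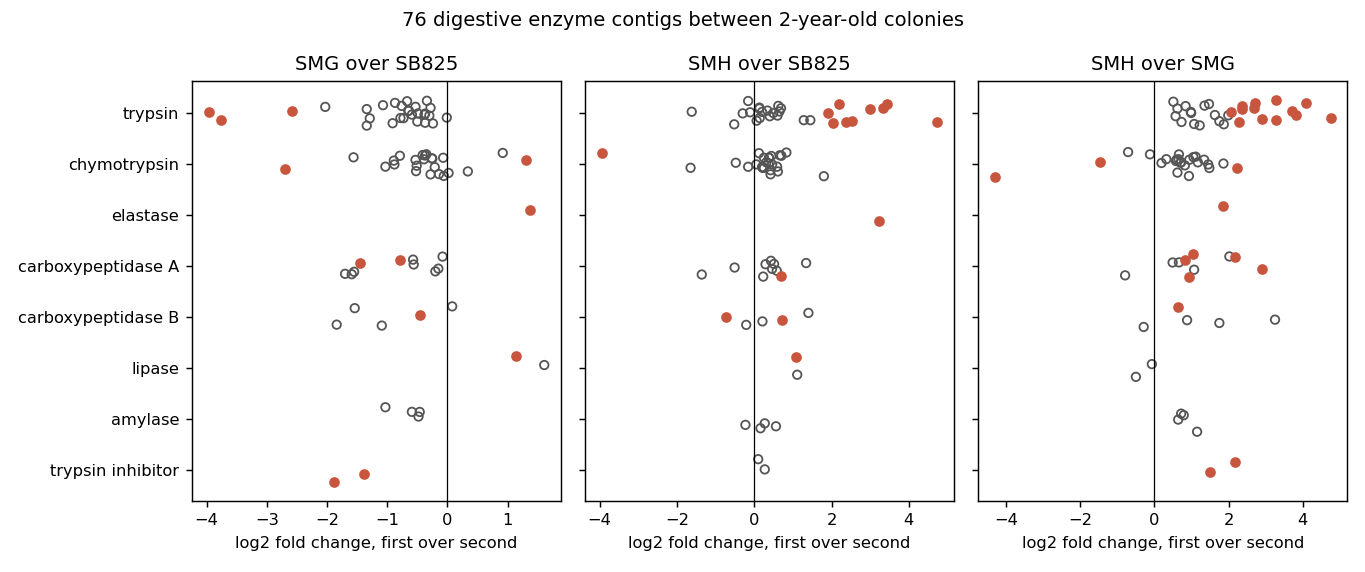
Log2 fold change of each of the 76 contigs between 2-year-old colonies, by enzyme class, for SMG over SB825, SMH over SB825 and SMH over SMG. Filled points passed a 10% false discovery rate in edgeR and open points did not. In SMH over SMG 23 filled points lie above 0 and 2 below, and most of those above 0 are trypsins.

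After TMM scaling the elastase differed between all 3 lines. Bot_c27199 had 6.18, 4.65 and 2.90 CPM in SMH, 1.61, 0.634 and 1.60 CPM in SMG, and 0.409, 0.591 and 0.466 CPM in SB825, and no line overlapped another in CPM. Its shares of all reads did overlap between SMG (5.35e-05% to 0.000125%) and SB825 (5.70e-05% to 7.85e-05%), with 10 to 26 read pairs per library in these lines. Its log2 fold change was 3.22 ± 0.37 in SMH over SB825 (edgeR adjusted p = 1.1e-05), 1.84 ± 0.35 in SMH over SMG (edgeR adjusted p = 0.0011) and 1.38 ± 0.40 in SMG over SB825 (edgeR adjusted p = 0.011). With library totals alone the last of these was 0.47 (edgeR adjusted p = 0.22), and that of Bot_c12296 for the same pair was 0.44 (edgeR adjusted p = 0.35).

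The triacylglycerol lipase Bot_c2742 had 10.9, 10.8 and 9.82 CPM in SMH, 12.7, 10.47 and 9.85 CPM in SMG, and 4.54, 4.73 and 5.81 CPM in SB825. After TMM scaling it was higher than in SB825 in both other lines, by 1.07 ± 0.14 on the log2 scale in SMH (edgeR adjusted p = 2.8e-05) and by 1.14 ± 0.14 in SMG (edgeR adjusted p = 1.6e-05). TMM factors were 0.632 to 0.844 in 2-year-old SMG and 1.33 to 1.43 in 2-year-old SB825. With library totals alone every member called in SMG over SB825 was lower in SMG, so the higher call of Bot_c2742 was lost. As shares of all reads, the 2 lipases summed took 0.000947% to 0.00118% in SMG and 0.000752% to 0.000992% in SB825, which overlapped. Between SMH and SMG the difference of Bot_c2742 was -0.07, with a 95% interval of -0.37 to 0.23. The trypsin inhibitors fell in SMG over SB825, with log2 fold changes of -1.89 ± 0.62 for Bot_rep_c46417 (edgeR adjusted p = 0.034) and -1.39 ± 0.32 for CAP3_round1_contig_2203 (edgeR adjusted p = 0.0026), and both were also called higher in SMH over SMG.

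The amylases had median log2 fold changes of 0.76 in SMH over SMG, 0.21 in SMH over SB825 and -0.53 in SMG over SB825, and the smallest adjusted p among them was 0.29, 0.59 and 0.20. Contigs of the sperm and axoneme list also differed between the same colonies. Of the 32 names, 30 were lower in SMH over SMG and none higher, 20 were higher and none lower in SMH over SB825, and 32 were higher in SMG over SB825. Of all contigs, 23.5% were called lower in SMH over SMG, 29.7% higher in SMH over SB825 and 31.6% higher in SMG over SB825. The summed level of the list was 130 ± 26.6 CPM in SMH, 376 ± 106 CPM in SMG and 108 ± 39.98 CPM in SB825 (SD, n = 3 libraries each), and its part in the differences of the digestive contigs was not tested.

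A list of 28 other digestive names, among them bile salt-activated lipase, colipase, maltase-glucoamylase, meprin, dipeptidyl peptidase 4 and deoxyribonuclease-1, served as the rest of the digestive pathway. At 2 years 13 of the 28 passed the test in SMH over SMG, 8 higher and 5 lower, 10 in SMH over SB825, 7 higher and 3 lower, and 13 in SMG over SB825, 7 higher and 6 lower, against 47.9%, 57.4% and 62.5% of all contigs called in these pairs. The sum of the list took 0.0190% of reads at 4 months, 0.116% at 2 years and 0.0977% at 3 years. These names, like the members, come from the list of contigs that differed between old and young colonies. Their age difference follows in part from that choice and is given as a description. Within colonies 7 of the 28 had r of at least 0.9 with the trypsin and chymotrypsin pool, with a median of 0.79.

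Contigs just outside the name rule were Putative trypsin-6, CAP3_round1_contig_368, and Carboxypeptidase O, Bot_c5490. CAP3_round1_contig_368 averaged 43.8 ± 17.3 CPM in old SMH, 3.61 ± 1.68 CPM in old SMG and 7.89 ± 6.66 CPM in old SB825, against 0.216 ± 0.133 CPM in young SMH, 0.203 ± 0.308 CPM in young SMG and 0.644 ± 0.374 CPM in young SB825 (SD, n = 3 libraries each). Bot_c5490 averaged 0.523 ± 0.394 CPM in old SMH, 1.73 ± 0.551 CPM in old SMG and 1.56 ± 0.248 CPM in old SB825, against 0.728 ± 0.092 CPM in young SMH, 0.207 ± 0.149 CPM in young SMG and 0.098 ± 0.1 CPM in young SB825.

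Of 803 named contigs that are no member, those whose log2 level over the 9 colonies was most like the members' summed level were Deoxyribonuclease-1, Bot_rep_c53144 (r = 0.993), Tryptase beta-2, CCTT45785.g1 (r = 0.989), Proactivator polypeptide, Bot_c16357 (r = 0.988), a solute carrier organic anion transporter 3A1, CAP3_round1_contig_2593 (r = 0.984), and Collectin-10, Bot_rep_c53133 (r = 0.982). These r values describe 9 colonies that share the age difference, and the names come from the same list of contigs that differed with age. Bot_rep_c53144, a nuclease that digests DNA, averaged 21.0 CPM in old SMH, 29.7 CPM in old SMG and 15.7 CPM in old SB825, against 1.00 CPM in young SMH, 4.48 CPM in young SMG and 1.03 CPM in young SB825.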

How the data were processed

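RNA from whole colonies was captured by poly(A), sequenced as read pairs and mapped by the authors with Bowtie 0.12.7 to an EST assembly after removal of the first 12 bases of each read. The authors counted reads per contig from SAMtools 0.1.18 output and deposited the raw counts, which were used here without change. A second deposited table holds the authors' DESeq comparison of old and young libraries (normalized means, fold changes, p-values) and was not used. Homolog names come from the rows at hand of the study's supplementary list, which are a part of it.

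TMM factors over 27 libraries (edgeR 4.0.16, R 4.3.3) gave CPM. Log2 levels used a pseudocount of 0.1 CPM, and a floor of 3 read pairs over a colony was set for contigs without reads. The 9 libraries of 2 years were fitted with glmQLFit (robust) after filterByExpr, at an adjusted p under 0.10. The edgeR fit was tested on counts simulated for SMG over SB825. It recovered 55 of 100 2-fold changes and 98 of 100 8-fold changes, with 22 false calls over 40985 contigs. Far fewer contigs were changed in that simulation than were called in the real contrasts. The changed contigs were drawn from all contigs above a low level, not from the members. Members of at least 10 CPM had a median SD between libraries of 1.48 on the log2 scale, against 0.146 for all such contigs. The recovery was therefore not measured for contigs that vary as the members do. DESeq2 1.42.0, other scalings, no filter, a replicate block, read pairs and leaving out libraries were alternatives, of which library totals, the omission of 2 libraries and class ratios without young SMG library 1 were added with the values known.

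Named contigs were, by rule, the contig with the most reads of each class (3 for trypsins and chymotrypsins), members higher in young colonies, the 2 largest called changes per direction and contrast, all members of classes of 5 or fewer, the names just outside the rule and the 5 most alike contigs. Others, such as the contigs without reads in young SMG, were named after their values were seen. Members and lists were chosen with earlier results of these data known.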

Additional observations from a re-analysis of the deposited data

Results flagged for a closer look

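The results below were singled out because all libraries of 1 line moved in one direction and all libraries of another line in the opposite direction between 3 and 2 years. In each case the difference between the lines was not tested. The trypsin to chymotrypsin ratio was higher at 3 years in SMG, by 0.68 on the log2 scale, and lower in SMH, with a log2 difference of -0.25. The trypsin CAP3_round1_contig_7243 had log2 differences, 3 years minus 2 years, of 3.63 in SMG and -4.10 in SMH. The trypsin Bot_rep_c48453 had 2.68 in SMG and -1.83 in SMH, and the trypsin Bot_rep_c36547 had 2.16 in SMG and -2.60 in SMH. The elastase Bot_c27199 had 0.77 in SMG and -1.87 in SMH. The carboxypeptidase A4 contig Bot_rep_c49116 had 0.68 in SMH and -0.89 in SB825.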

How the results depend on the processing

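Lines, replicate numbers or 2 libraries were left out in turn. Members higher in old than in young colonies of all lines kept then numbered 73 to 75. The median log2 difference, old minus young, ranged over 3.06 to 5.03 in these omissions. It was 5.03 without old SB825 library 2 and young SMG library 1, which were picked for omission with the values known. This contrast chose the members, so these ranges are a description. Between 3 and 2 years the median reversed to 0.04 without SMH and to 0.03 without those 2 libraries, of which only old SB825 library 2 enters this difference. With library totals alone, also chosen after the data were seen, 48 members were called in SMG over SB825 and 41 in SMH over SMG, while 15 were called in SMH over SB825. DESeq2 called 17 in SMG over SB825, 19 in SMH over SB825 and 37 in SMH over SMG. The shares of all contigs called under library totals and DESeq2 are not given here, so these counts are no result about the members. Leaving out 1 library gave 11 to 23 calls in SMG over SB825, 10 to 17 in SMH over SB825 and 15 to 30 in SMH over SMG. With the replicate number as a block the counts were 12 in SMG over SB825, 9 in SMH over SB825 and 17 in SMH over SMG, but libraries with the same number had correlations of -0.13 to 0.07 in their deviations, so the numbers mark no pairing. For the 2 largest called changes per direction and contrast, 154 alternative values kept direction and call. The other 2 lost the call, Bot_c27199 with 0.47 and Bot_c12296 with 0.44 in SMG over SB825 under library totals. Other named contigs, such as Bot_c2742, were not part of this count. The summed shares of classes moved by at least 1 SD of the libraries of a colony in 37 alternative values and by less in 314. The 37 all arose on leaving out the leading contig of a class or on TMM scaling. Leaving out 1 of 3 libraries cannot shift their mean by 1 SD, so those values stayed below this mark by construction. The count of 314 therefore says nothing about the weight of single libraries. The elastase, with 1 contig, could not be computed without its leading contig. Low contigs, such as Bot_c7280 in 2-year-old SMH, rest on few reads.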
